A study of Mus musculus with 8 samples.

Results

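The transcripts described here are those of 10 genes of the Nodal signalling system: the ligands Nodal and Gdf3, the coreceptor gene Tdgf1, the antagonist genes Lefty1, Lefty2 and Cer1, the receptor genes Acvr1b and Acvr2b, and the convertase genes Furin and Pcsk6. They were chosen by name from the 20461 gene identifiers of the deposited tables, with earlier results of these data known. All 10 were listed, and 9 of them were among the 11867 genes with enough signal for a test. The cells were mouse embryonic stem cells derived from tatsf1 flox/flox CreERT2 mice, in which tamoxifen activates the CreERT2 recombinase and so removes Htatsf1, the gene of a splicing-associated RNA-binding protein. Ethanol, the vehicle, or tamoxifen was given for 48 h or for 72 h, and each of these 4 groups has 2 libraries. All groups carried the floxed gene and CreERT2 and grew in conventional stem cell medium on mouse embryonic fibroblasts (MEFs), whose RNA is in the libraries too. No group with tamoxifen and an intact gene is among them, so effects of tamoxifen or of active CreERT2 and effects of the loss of Htatsf1 cannot be told apart. Where CreERT2 is driven from, and whether the cells were a single clone, is not given in the sources used here. Nor is it stated that paired libraries are independent cultures, and the p-values therefore rest on a spread that may be technical only.

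Nodal is a secreted protein of the TGF-beta family. It is made as a precursor that the convertases Furin and Pcsk6 (also called PACE4) cleave, and it signals through a complex of an activin type I receptor (Acvr1b) and an activin type II receptor (Acvr2b). Unlike the activins it needs a coreceptor, Tdgf1 (Cripto), and Gdf3 is a related ligand that uses the same complex. The receptors phosphorylate SMAD proteins that enter the nucleus with Foxh1 and switch on target genes, among which are Nodal itself and its secreted antagonists Lefty1 and Lefty2. Cer1 (Cerberus-like) is another secreted antagonist, made by endoderm. In the early mouse embryo the pathway maintains the epiblast and patterns its axes, and in mouse embryonic stem cells it is active at a low level.

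The comparison below turns on the 2 Lefty genes behaving differently, so their sequences were set side by side to see how far their reads can be told apart. Lefty1 lies on chromosome 1 from 182865170 to 182868532 of mm9 and Lefty2 on the same chromosome from 182823250 to 182829233, with 35936 bases between them. Each has 4 exons, and their coding regions (GENCODE transcripts, GRCm38) are both 1104 bases long and align with 0 gaps. In that alignment 1014 bases, or 91.8%, were identical and 90 differed. The 90-base window with the most differences is coding bases 35 to 124, counted from the A of the start codon, printed 5′ to 3′ with the 27 differing bases in capitals:
Lefty1: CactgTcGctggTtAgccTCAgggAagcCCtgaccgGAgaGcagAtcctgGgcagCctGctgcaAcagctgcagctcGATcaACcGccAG
Lefty2: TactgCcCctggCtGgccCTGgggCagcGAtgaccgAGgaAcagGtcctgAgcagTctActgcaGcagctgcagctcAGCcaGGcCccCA
The longest stretch without a difference was 140 bases. Of the 1521 windows of 100 bases, the length of a read, in the Lefty1 transcript, 73 (4.8%) also occurred in the Lefty2 transcript, which is 3.1% of the 2374 windows there. How the authors' counting assigned reads from these shared windows is not given in the sources used here. Tdgf1 shares 86 of 1833 such windows (4.7%) with the pseudogene Tdgf1-ps1 and 0 with Tdgf1-ps2, so a small part of its signal is uncertain in the same way.

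Promoters are shown for the 2 genes at the head of the pathway that passed the test in opposite directions, Nodal and Tdgf1. The table of RefSeq promoters (GRCm38.p6) matched 7 of the 10 genes. Lefty1, Lefty2 and Gdf3 had no match, so their promoters were not searched. The 250 bases before the annotated start are printed 5′ to 3′ along the gene's own strand, with matches to the motifs named below in capitals, at chr10:61417722-61417971 (plus strand) and chr9:110946159-110946408 (minus strand):
Nodal: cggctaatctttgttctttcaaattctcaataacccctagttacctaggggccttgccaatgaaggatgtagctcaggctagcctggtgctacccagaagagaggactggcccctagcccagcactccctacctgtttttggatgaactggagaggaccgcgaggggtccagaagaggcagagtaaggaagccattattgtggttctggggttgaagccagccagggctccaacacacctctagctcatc
Tdgf1: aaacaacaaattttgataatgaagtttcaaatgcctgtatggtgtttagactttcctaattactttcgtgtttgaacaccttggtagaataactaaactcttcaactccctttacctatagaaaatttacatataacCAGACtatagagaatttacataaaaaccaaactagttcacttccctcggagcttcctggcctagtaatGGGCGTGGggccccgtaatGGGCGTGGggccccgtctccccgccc
Both strands of the 250-base window before the start were searched in each promoter of the table. The motifs were TGTGGATT (FOXH1-type, held by 0.72% of 32851 promoters) and GTCTG (SMAD-type, the reverse of which reads CAGAC, 42.2%). The other motifs were GTCTAGAC (a SMAD palindrome that does not contain GTCTG, 0.17%) and GGGCGTGG (KLF-type, 4.79%). The Nodal window held none of the 4. The Tdgf1 window held 1 SMAD-type match and 2 KLF-type matches, the latter beginning 45 and 26 bases before the start within a repeated stretch. SMAD-type matches were also found in the windows of Cer1, Furin and Acvr2b, and 0 FOXH1-type matches in those of the 7 genes. These are matches of letters and say nothing of binding.

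The values are FPKM, fragment counts scaled by the authors to transcript length and library size, so that levels of different genes can be set side by side. The fragments implied by their confidence intervals came to 8.99 M to 16.8 M in a library, with 260 to 531 behind the median tested gene. Htatsf1 stood at 21.7 to 23.0 FPKM in the ethanol libraries and at 3.78 to 4.63 FPKM in the tamoxifen libraries, so every library matched its label. The stem cell identity of the cells was seen in 17 of 18 listed stem cell markers, Sox2 being listed at 0 in all 8 libraries. The summed FPKM of 32 fibroblast markers was 962 to 986 in ethanol and 1375 to 1408 in tamoxifen at 48 h, and 1050 to 1087 against 1943 to 2086 at 72 h. That of the stem cell markers was 3159 to 3269 against 3117 to 3169 at 48 h, and 4399 to 4573 against 3526 to 3957 at 72 h. Dppa5a was the largest part of this sum, with means of 2516 in ethanol and 1938 in tamoxifen at 72 h. Pou5f1 (489 to 524), Utf1 (391 to 421) and Dppa4 (70.3 to 74.6) had higher means in tamoxifen at 72 h. These changes did not pass the limma test, while 11 of the 17 markers tested fell. In bulk RNA of this kind, fewer cells of a type and less RNA per cell cannot be told apart.

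In ethanol at 48 h the 10 genes fell into 3 tiers. Tdgf1 stood highest at 590 FPKM, followed by Lefty1 at 94.6, Lefty2 at 54.3, Gdf3 at 37.5 and Nodal at 21.6, each of which lay apart from its neighbours in both libraries. The receptors and convertases formed the low tier. Furin, Acvr2b, Pcsk6 and Acvr1b had means of 9.11, 8.43, 7.25 and 6.78 FPKM, and the libraries of these 4 genes ran from 6.54 to 9.58 FPKM with overlaps between neighbours. Cer1 was listed at 0 FPKM in both libraries.

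Tamoxifen was accompanied by more Nodal RNA, while Lefty1 did not pass the test at either time and Lefty2 was lower at 72 h by a change that differed from that at 48 h. Changes are given as log2(FPKM + 1), which understates those of low genes, and calls are those of a limma fit over all genes with an adjusted p below 0.05. At 48 h Nodal and Furin rose and Tdgf1 fell, which made 3 of 9 genes called against 12.4% of all genes tested (7.88% higher and 4.47% lower). At 72 h Nodal, Acvr1b and Furin rose and Lefty2, Tdgf1 and Gdf3 fell, 6 of 9 against 38.5% of all genes (20.1% higher and 18.5% lower). The difference between the 2 changes was called for Lefty2 alone, 1 of 9 against 3.45% of all genes (1.45% lower). The median change of the 9 genes was 0.12 at 48 h and 0.06 at 72 h, and that of all genes was 0.02 and -0.01. By libraries that do not overlap, 4 of the 10 genes were higher and 3 lower in tamoxifen at 48 h, and 4 higher and 4 lower at 72 h, while 58.8% of all genes tested did not overlap at 48 h (32.7% higher and 26.1% lower) and 69.7% at 72 h (35.2% and 34.5%). When single libraries were left out, the changes at 48 h ran from 0.68 to 0.75 for Nodal, 0.28 to 0.37 for Furin and -0.26 to -0.16 for Tdgf1. The 48 h calls of Furin and Tdgf1 depended on single libraries, as given for each gene below.

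**Figure D1:**
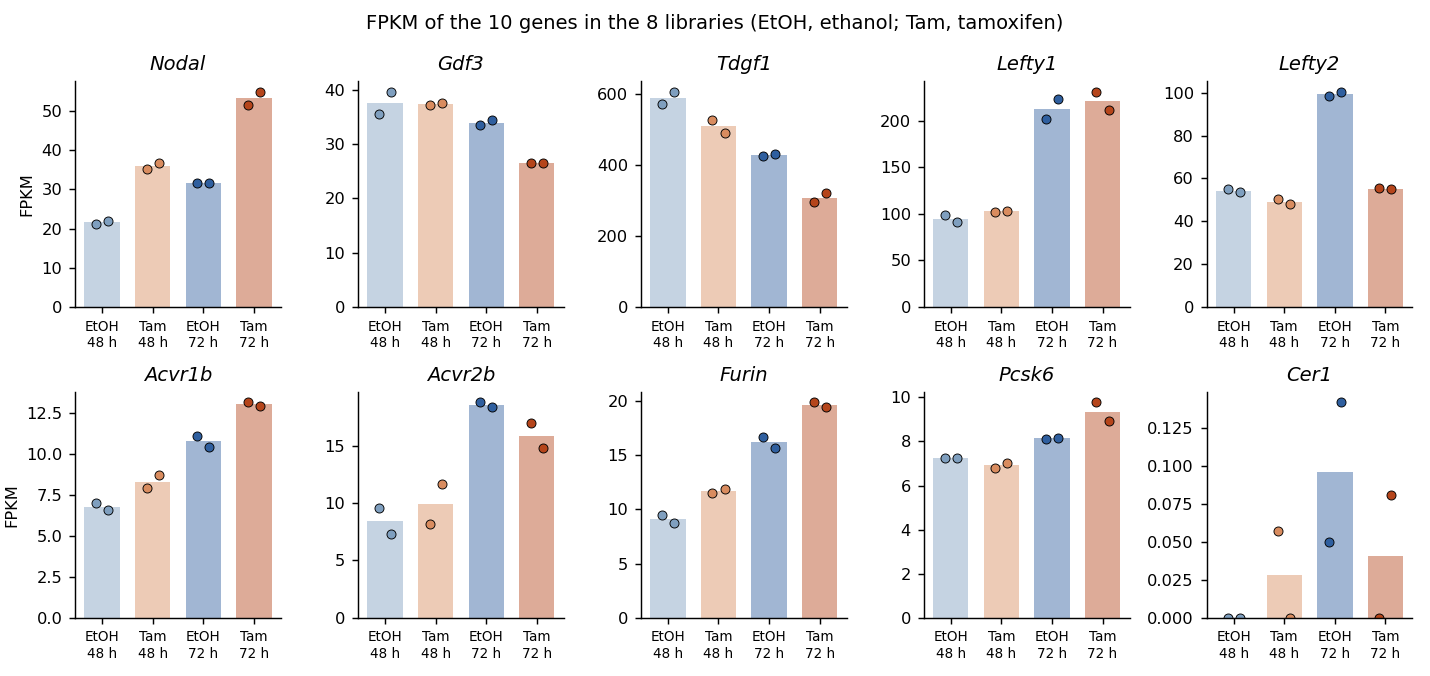
FPKM (vertical axes, each starting at 0) of the 10 genes in ethanol (EtOH) and tamoxifen (Tam) at 48 h and 72 h; points are the 2 libraries of a group and bars their mean. Nodal is higher in tamoxifen at both times (36.0 against 21.6 and 53.2 against 31.6 FPKM), and Lefty2 is lower at 72 h (55.3 against 99.4 FPKM).

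Nodal, the ligand, lies on chromosome 10 from 60880720 to 60888085 of mm9 and has 3 exons. In ethanol it stood at 21.1 and 22.0 FPKM at 48 h and at 31.7 and 31.5 FPKM at 72 h. In tamoxifen it stood at 35.2 and 36.8 FPKM at 48 h and at 51.6 and 54.9 FPKM at 72 h. The tamoxifen libraries were above the ethanol libraries at each time, and those of 48 h were also above the ethanol libraries of 72 h. The rise at 48 h was 0.71 ± 0.06 (SE, limma adjusted p = 0.000103), a ratio of means of 1.67. The rise at 72 h was 0.73 ± 0.06 (SE, limma adjusted p = 1.2e-05), a ratio of 1.68. The change at 72 h exceeded that at 48 h by 0.02, with a 95% interval of -0.17 to 0.20 (limma adjusted p = 0.927). The value rested on 516 to 1770 fragments per library.

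Gdf3, the second ligand, lies on chromosome 6 from 122555421 to 122560089 and has 2 exons. In ethanol it stood at 35.4 and 39.6 FPKM at 48 h and at 33.4 and 34.5 FPKM at 72 h. In tamoxifen the libraries were at 37.1 and 37.5 FPKM at 48 h, between the 2 ethanol libraries, and at 26.6 and 26.5 FPKM at 72 h, below both. The change at 48 h was -0.01 (95% interval -0.15 to 0.13, limma adjusted p = 0.955). At 72 h Gdf3 fell by 0.34 (SE 0.06, limma adjusted p = 0.00199) to 78.2% of ethanol. The difference between the times was -0.34 (limma adjusted p = 0.0702) and did not pass.

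Tdgf1, the coreceptor, lies on chromosome 9 from 110842112 to 110848662, has 6 exons and was the most abundant of the 10 transcripts in every library. It stood at 573 and 606 FPKM in ethanol and at 527 and 491 FPKM in tamoxifen at 48 h. The libraries of 72 h were at 426 and 430 FPKM in ethanol and 297 and 320 FPKM in tamoxifen. The tamoxifen libraries lay below the ethanol libraries at both times. The fall at 48 h was -0.21 ± 0.06 (SE, limma adjusted p = 0.0464), to 86.3% of ethanol, and at 72 h -0.47 ± 0.06 (SE, limma adjusted p = 0.000241), to 72.1%. The difference between the times was -0.26 (limma adjusted p = 0.123). The call at 48 h was lost when any of 6 of the 8 libraries was left out (all 4 of 48 h and the 2 of ethanol at 72 h), with an adjusted p of up to 0.269.

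Lefty1, the first antagonist, stood at 98.2 and 91.0 FPKM in ethanol and at 102 and 103 FPKM in tamoxifen at 48 h. At 72 h the ethanol libraries were at 202 and 223.1 FPKM and the tamoxifen libraries at 231 and 211 FPKM. The groups lay close but apart at 48 h and overlapped at 72 h. Neither change passed the limma test: it was 0.12 at 48 h (95% interval -0.03 to 0.27, adjusted p = 0.287) and 0.06 at 72 h (95% interval -0.09 to 0.20, adjusted p = 0.544). The values rested on 1421 to 6164 fragments per library.

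Lefty2, the paralog, stood at 55.0 and 53.7 FPKM in ethanol and at 50.3 and 48.0 FPKM in tamoxifen at 48 h. The values of 72 h were 98.4 and 100.4 FPKM in ethanol and 55.6 and 54.9 FPKM in tamoxifen. The tamoxifen libraries of 72 h thus lay at the level of ethanol at 48 h. The change at 48 h was -0.14 (95% interval -0.26 to -0.03, limma adjusted p = 0.107) and did not pass. At 72 h Lefty2 fell by 0.84 (SE 0.05, limma adjusted p = 3.07e-06) to 55.6% of ethanol. The 72 h change was lower than the 48 h change by 0.69 ± 0.07 (SE, limma adjusted p = 0.00473). Over all settings tried, including each library left out in turn, the adjusted p of this difference ran from 0.00321 to 0.034.

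Cer1, the third antagonist, on chromosome 4 from 82527655 to 82531055, was listed at 0 FPKM in 4 of the 8 libraries and at 0.0499 to 0.142 FPKM in the others. These values rested on 8 fragments in all. It was under the minimum for a test, and a difference between groups was not detectable at this depth.

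Acvr1b, the type I receptor gene on chromosome 15 from 101004556 to 101043032, stood at 7.02 and 6.54 FPKM in ethanol and at 7.92 and 8.69 FPKM in tamoxifen at 48 h. The values of 72 h were 11.1 and 10.4 FPKM in ethanol and 13.1 and 12.9 FPKM in tamoxifen. The tamoxifen libraries were higher at both times, by 0.26 at each. The change passed at 72 h (SE 0.08, limma adjusted p = 0.0229, ratio of means 1.21) and not at 48 h (SE 0.08, limma adjusted p = 0.0523), while the difference between the times was -0.002 (limma adjusted p = 0.993). The 72 h call was lost without ethanol 72 h replicate 2, tamoxifen 72 h replicate 1 or tamoxifen 72 h replicate 2 (limma adjusted p = 0.123, 0.0902 and 0.0664).

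Acvr2b, the type II receptor gene on chromosome 9 from 119311619 to 119342624, was uneven between the libraries of 48 h. At 48 h it stood at 9.58 and 7.27 FPKM in ethanol and at 8.19 and 11.7 FPKM in tamoxifen, and the groups overlapped. The ethanol libraries of 72 h were at 18.8 and 18.4 FPKM and those of tamoxifen at 16.9 and 14.8 FPKM, both lower. The change was 0.21 at 48 h (95% interval -0.12 to 0.54) and -0.22 at 72 h (95% interval -0.55 to 0.11), and neither passed limma (adjusted p = 0.402 and 0.275). With 143 to 550 fragments per library it rested on the fewest fragments of the 9 tested genes.

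Furin, the general convertase gene on chromosome 7 from 87534080 to 87550317, stood at 9.45 and 8.77 FPKM in ethanol and at 11.5 and 11.8 FPKM in tamoxifen at 48 h. By 72 h the values were 16.7 and 15.7 FPKM in ethanol and 19.8 and 19.5 FPKM in tamoxifen. The groups lay apart at both times. The rise was 0.33 at 48 h (SE 0.07, limma adjusted p = 0.0129, ratio of means 1.28) and 0.27 at 72 h (SE 0.07, limma adjusted p = 0.0117, ratio of means 1.21). The call was lost at 48 h without ethanol 48 h replicate 2 or tamoxifen 48 h replicate 2 (limma adjusted p = 0.106 and 0.0714), and at 72 h without ethanol 72 h replicate 2 or tamoxifen 72 h replicate 1 (limma adjusted p = 0.0813 and 0.0555).

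Pcsk6, the second convertase gene, on chromosome 7 from 73007022 to 73195272, stood at 7.23 and 7.26 FPKM in ethanol and at 6.82 and 7.03 FPKM in tamoxifen at 48 h. The libraries of 72 h were at 8.13 and 8.15 FPKM in ethanol and at 9.77 and 8.94 FPKM in tamoxifen. Its tamoxifen libraries were below those of ethanol at 48 h and above them at 72 h. The changes of -0.06 and 0.18 did not pass limma (adjusted p = 0.66 and 0.083), nor did their difference of 0.24 (adjusted p = 0.239).

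**Figure D2:**
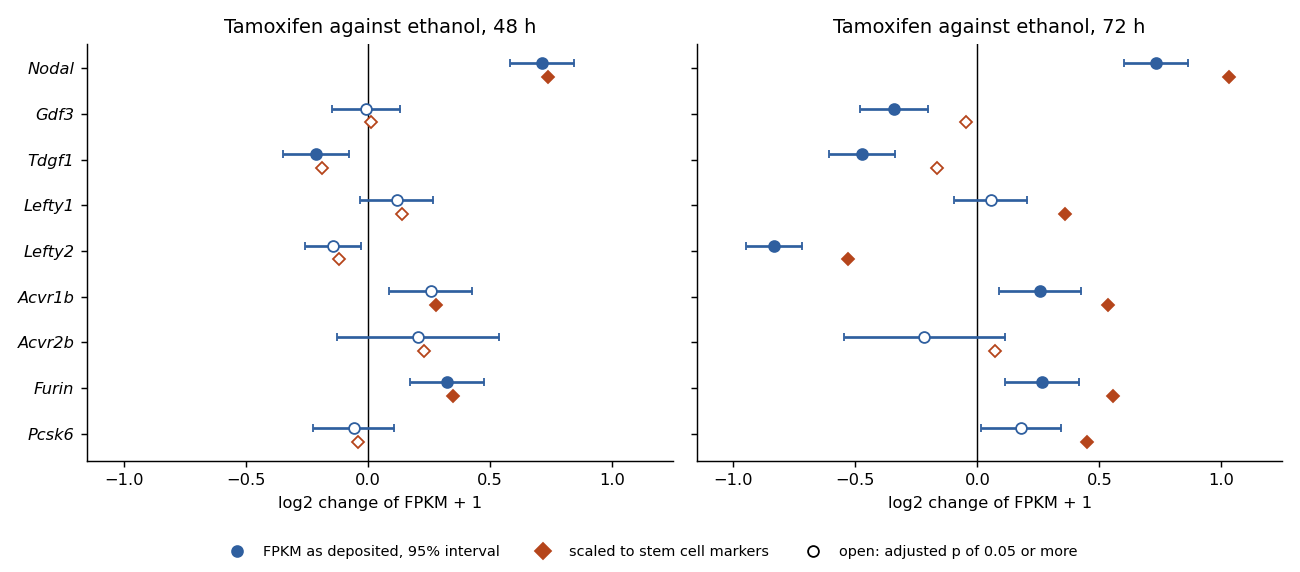
Log2 change of FPKM + 1, tamoxifen against ethanol, of the 9 tested genes at 48 h (left) and 72 h (right); circles with 95% intervals use FPKM as deposited, diamonds FPKM scaled to the stem cell markers, and filled symbols have an adjusted p below 0.05. The Nodal circles lie at 0.71 and 0.73, those of Lefty2 at -0.14 and -0.84, and at 72 h the diamonds lie to the right of the circles for every gene.

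Fibroblast markers were higher and most stem cell markers lower in tamoxifen at 72 h. The fit was therefore repeated with each library's FPKM divided by the geometric mean of its 17 detected stem cell markers. The divisor was 1.23 and 1.175 in the ethanol libraries of 72 h and 0.910 to 0.979 in the others. Between the times in ethanol 9 of the 17 markers rose and 4 fell, against 38% and 19.2% of all genes tested. The markers thus changed in the vehicle too, and this scale does not measure the share of stem cells. This scaling was chosen after seeing the data. It moved the median of all genes tested at 72 h from -0.01 to 0.27. Among the 9 genes 5 then rose and 1 fell at 72 h, against 3 and 3 before it, and of all genes tested 58.7% were called, 55% higher and 3.69% lower. Lefty2 remained lower at 72 h (-0.53, limma adjusted p = 3.38e-05), and its difference between the times still passed (-0.41, limma adjusted p = 0.00906), on a scale where 28% of all genes passed that test, 27.6% higher and 0.48% lower. Gdf3 stood at -0.05 (limma adjusted p = 0.605) and Tdgf1 at -0.17 (limma adjusted p = 0.0538), so neither passed at 72 h on this scale. Nodal stood at 1.03 (limma adjusted p = 2.14e-07), and Lefty1, Acvr1b, Furin and Pcsk6 passed as higher with 0.36, 0.54, 0.55 and 0.45. At 48 h the scaling moved these 9 values by little, Nodal standing at 0.74 and Tdgf1 at -0.19 (limma adjusted p = 0.098). Of the 17 stem cell markers tested, 0 rose and 11 fell at 72 h on the deposited scale, with a median of -0.38, and of the 32 fibroblast markers 31 rose and 0 fell, with a median of 1.05. At 48 h the counts were 0 and 0 for the stem cell markers and 29 and 0 for the fibroblast markers. The part of the feeder cells in the changes of Nodal, Furin and the receptors was not tested.

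Markers of other embryonic cell types were summed in the same way. The summed FPKM of 7 mesendoderm genes ran from 1.73 to 3.36 over the 8 libraries, without a gap between tamoxifen and ethanol at either time. For 13 primitive endoderm genes it was 38.0 to 41.0 in ethanol and 44.8 to 47.8 in tamoxifen at 48 h, and 57.6 to 59.4 against 74.1 to 76.5 at 72 h, with Ttr at 0 throughout. Most of that sum came from Lamb1, a laminin chain, with means of 29.1 and 35.5 FPKM at 48 h and 41.0 and 55.8 FPKM at 72 h. Of the 7 primitive endoderm genes tested at 72 h, Lamb1, Gata6 and Dab2 rose, Lama1, another laminin chain, fell, and 3 did not pass. On the stem cell marker scale Lama1 lost its call (limma adjusted p = 0.125). Gata6 reached the minimum of 1 FPKM only in the tamoxifen libraries of 72 h (1.23 and 1.17). It was thus tested only through the group called higher, and its call is not support for a rise. For 6 neuroectoderm genes it was 37.8 to 38.4 against 31.5 to 33.8 at 48 h and 36.7 to 37.8 against 31.8 to 35.4 at 72 h, with Sox1 at 0 throughout. Of the 3 of these tested Sox11 fell at 72 h, a call lost on the stem cell marker scale (limma adjusted p = 0.399).

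The balance of antagonist to ligand RNA was followed as a ratio of FPKM within each library, which no scaling of a whole library can move. Lefty2 over Nodal was 2.61 and 2.44 in ethanol and 1.43 and 1.31 in tamoxifen at 48 h, and 3.10 and 3.18 against 1.08 and 1.00 at 72 h. Both tamoxifen groups lay below both ethanol groups, and at 72 h in tamoxifen the 2 transcripts were at about equal levels. Lefty1 over Nodal was 4.66 and 4.13 in ethanol and 2.91 and 2.80 in tamoxifen at 48 h, and 6.37 and 7.08 against 4.47 and 3.85 at 72 h. The tamoxifen libraries of 72 h overlapped the ethanol libraries of 48 h in this ratio. Lefty1 over Lefty2 was 1.79 and 1.69 in ethanol and 2.04 and 2.14 in tamoxifen at 48 h, and 2.05 and 2.22 against 4.15 and 3.85 at 72 h. The ratio in tamoxifen at 72 h stood apart from all the other libraries. Tdgf1 over Nodal was 27.2 and 27.5 in ethanol and 15.0 and 13.4 in tamoxifen at 48 h, and 13.4 and 13.7 against 5.76 and 5.83 at 72 h. The ratios are given as a description and were not tested.

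**Figure D3:**
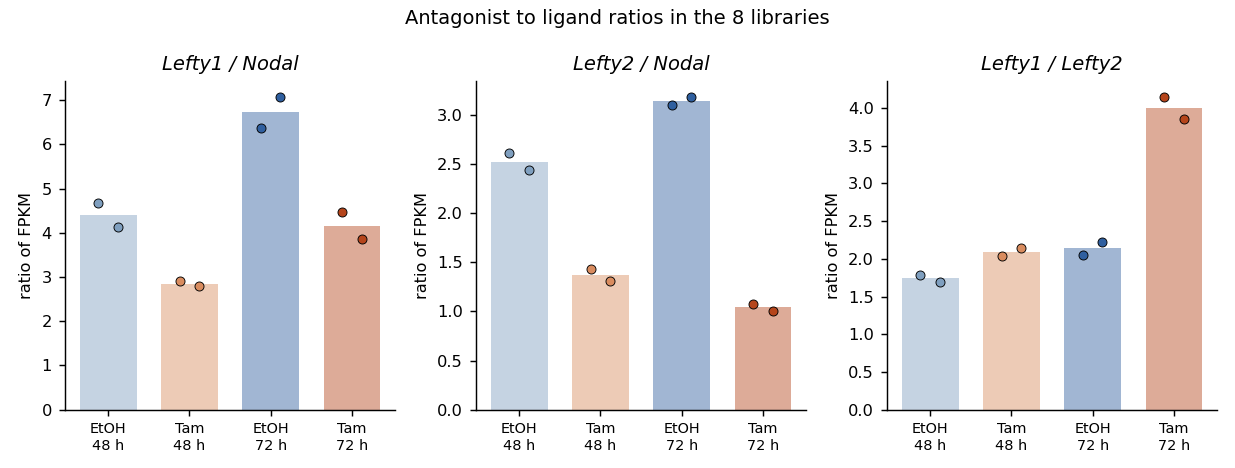
Ratio of FPKM (vertical axes, each starting at 0) within each library for Lefty1 over Nodal, Lefty2 over Nodal and Lefty1 over Lefty2; points are libraries and bars the means of 2. Lefty2 over Nodal falls from a mean of 3.14 in ethanol to 1.04 in tamoxifen at 72 h, while Lefty1 over Lefty2 goes from 2.14 to 4.00.

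The 2 times were compared within each treatment to see what the genes did in the vehicle alone. The 48 h and 72 h libraries carry different run numbers in their file names, so time and whatever else differed between these sets cannot be told apart. The median of all genes was 0.11 between the times in ethanol and 0.12 in tamoxifen, and changes are to be read against that. In ethanol 6 of the 9 genes rose and 1 fell, 7 called against 57.2% of all genes tested (38% higher and 19.2% lower). Lefty1 rose by 1.16 (2.25-fold), Acvr2b by 1.07 (2.20-fold), Lefty2 by 0.86 (1.83-fold), Furin by 0.77 (1.78-fold), Acvr1b by 0.60 (1.59-fold) and Nodal by 0.53 (1.47-fold), with limma adjusted p from 1.36e-06 to 0.000188. Tdgf1 fell by 0.46 (limma adjusted p = 0.00013), while Gdf3 and Pcsk6 stood at -0.14 and 0.15 (limma adjusted p = 0.0832 and 0.113). Gdf3 passed as lower after median-ratio scaling (-0.28, adjusted p = 0.00423), without ethanol 48 h replicate 1 (-0.22, adjusted p = 0.0322) and on the stem cell marker scale (-0.49, adjusted p = 8.73e-05). On that last scale the changes in ethanol were 0.18 for Nodal, 0.80 for Lefty1, 0.50 for Lefty2, 0.27 for Acvr1b, 0.72 for Acvr2b, 0.43 for Furin and -0.83 for Tdgf1, and all 7 passed, while the median of all genes was -0.20.

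In tamoxifen all 9 genes were called between the times, 7 higher and 2 lower, against 57.1% of all genes tested (37.5% higher and 19.6% lower). Lefty1 rose by 1.1 (2.15-fold, limma adjusted p = 2.55e-06) and Nodal by 0.55 (limma adjusted p = 3.62e-05), close to their rises in ethanol. Lefty2 rose by 0.17 (1.12-fold, limma adjusted p = 0.0196). That call was lost after median-ratio scaling (0.03, adjusted p = 0.676), without the variance trend (adjusted p = 0.0506), on the stem cell marker scale (0.09, adjusted p = 0.281) and without tamoxifen 48 h replicate 2 or tamoxifen 72 h replicate 1 (adjusted p = 0.126 and 0.0598). Tdgf1 fell by 0.72 (limma adjusted p = 1.03e-05) and Gdf3 by 0.47 (limma adjusted p = 0.000151). These comparisons use the same libraries as those of tamoxifen with ethanol, and the test of the difference between the treatments is the one given for Lefty2 above.

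**Figure D4:**
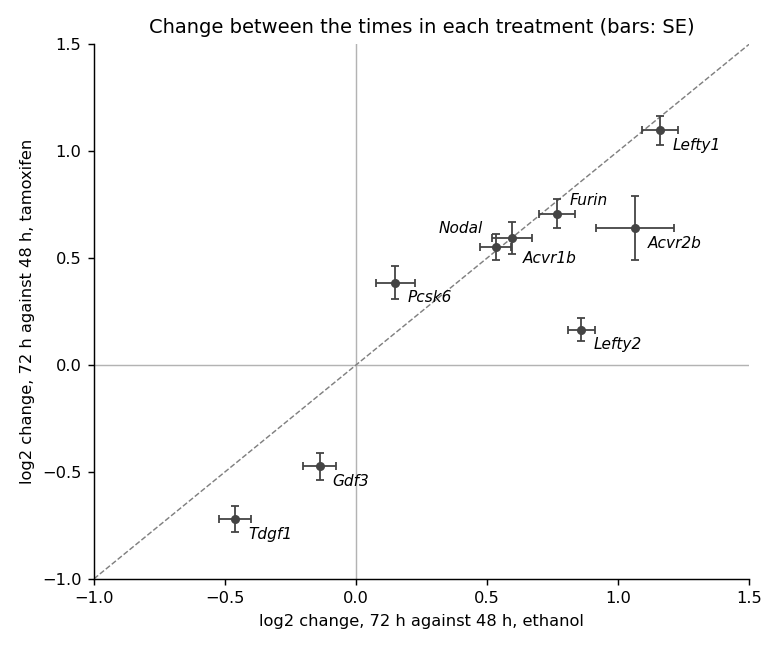
Log2 change of FPKM + 1 from 48 h to 72 h in ethanol (horizontal axis) and in tamoxifen (vertical axis) for the 9 tested genes; bars are 1 SE and the dashed line marks equal change. Lefty1 lies near the line at 1.16 and 1.1, whereas Lefty2 lies below it at 0.86 and 0.17.

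The authors' deposited tables hold means of scaled counts from a separate count-based comparison of the same libraries, pooled within groups. In the authors' deposited table for 48 h Nodal went from 527 in ethanol to 837 in tamoxifen (log2 0.67, adjusted p = 2.38e-12), Lefty1 from 1792 to 1814 (0.02, adjusted p = 0.988) and Lefty2 from 1452 to 1242 (-0.23, adjusted p = 0.0196). Lefty2 was therefore past 0.05 at 48 h there and not in the limma fit. Tdgf1 (-0.22, adjusted p = 0.000495) and Furin (0.28, adjusted p = 0.0303) were also past 0.05 at 48 h in the authors' deposited table. Gdf3, Acvr1b, Acvr2b and Pcsk6 were not. In the authors' deposited table for 72 h Nodal went from 815 to 1387 (0.77, adjusted p = 6.05e-21), Lefty1 from 4197 to 4461 (0.09, adjusted p = 0.395) and Lefty2 from 2943 to 1636 (-0.85, adjusted p = 2.93e-31). Tdgf1, Gdf3, Acvr1b and Furin were past 0.05 at 72 h in the authors' deposited table with -0.54, -0.38, 0.27 and 0.37, and Acvr2b and Pcsk6 were not (-0.21 and 0.22, adjusted p = 0.0981 and 0.0546). The authors' deposited tables have 11.9% of genes past 0.05 at 48 h and 32% at 72 h.

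Other genes of the pathway were taken as 3 lists. Of all genes tested 7.88% rose and 4.47% fell at 48 h (median 0.02), and 20.1% rose and 18.5% fell at 72 h (median -0.01), and the counts of the lists are to be read against these shares. Of 26 other ligands, receptors and antagonists 21 were tested. At 48 h 5 rose and 0 fell (median 0.24), and at 72 h 13 rose and 1 fell (median 0.34). Fst, which encodes follistatin, a secreted protein that binds activin, went from 1.87 to 5.29 FPKM at 72 h (1.13 ± 0.10 SE, limma adjusted p = 2.26e-05). Inhba, the beta A subunit of activin, went from 11.8 to 25.0 FPKM (1.03 ± 0.07 SE, limma adjusted p = 6.07e-06), and Grem1, a secreted antagonist of BMP ligands, from 11.1 to 23.3 FPKM (1.01 ± 0.08 SE, limma adjusted p = 9.72e-06). Fibroblast markers rose in the same libraries by a median of 1.05, and their part in these rises was not tested. Gdf1, a Nodal partner in the embryo, was the 1 gene of the list that fell at 72 h (-0.53 ± 0.16 SE, limma adjusted p = 0.0256), a call lost when low genes were not filtered out and when ethanol 72 h replicate 1 or tamoxifen 72 h replicate 1 was left out (limma adjusted p = 0.075, 0.14 and 0.189), and on the stem cell marker scale (-0.27, limma adjusted p = 0.143). The count of rises at 48 h was 2 without ethanol 48 h replicate 2 and 3 without either tamoxifen library of 48 h, and that at 72 h was 8 with an FPKM minimum of 5.

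Of 20 SMADs, cofactors and regulators 4 rose and 0 fell at 48 h (median 0.09), and 5 rose and 1 fell at 72 h (median 0.05), where 20.1% of all genes rose and 18.5% fell. Hgs, an endosomal adaptor of receptor traffic, rose from 16.1 to 23.3 FPKM at 72 h (0.50 ± 0.06 SE, limma adjusted p = 0.000229), and Smad3, a receptor-activated SMAD, from 6.36 to 8.71 FPKM (0.40 ± 0.08 SE, limma adjusted p = 0.00311). Tgif1, a corepressor of SMAD complexes, fell from 72.0 to 59.5 FPKM (-0.27 ± 0.05 SE, limma adjusted p = 0.00222), and on the stem cell marker scale it stood at 0.03. Smad2, Smad4 and Foxh1 stood at 0.16, -0.08 and 0.10 at 72 h and did not pass (limma adjusted p = 0.105, 0.4 and 0.395). With all libraries kept, 3 genes of this list rose at 72 h without the filter on low values, and likewise after median-ratio scaling. It was also 3 after quantile normalization and with the replicate number as a block. At 48 h 2 rose without the filter. The count of rises at 72 h was 2 without ethanol 72 h replicate 2 or tamoxifen 72 h replicate 1, 3 without ethanol 72 h replicate 1 or either tamoxifen library of 48 h, and 16 on the stem cell marker scale, where 55% of all genes tested rose. At 48 h it was 1 without ethanol 48 h replicate 2 or tamoxifen 48 h replicate 1.

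Of 17 known targets of activin and Nodal signalling 9 were tested, 3 of which are Nodal, Lefty1 and Lefty2 themselves. At 48 h 2 rose and 0 fell (median 0.18), and at 72 h 2 rose and 1 fell (median 0.05). The 2 that rose at 72 h were Nodal and Pmepa1, the gene of a membrane protein that restrains SMAD activation, which went from 8.01 to 12.4 FPKM (0.57 ± 0.07 SE, limma adjusted p = 0.000259). Lefty2 was the 1 that fell. Smad7 and Skil, negative-feedback targets that are also among the 20 transducers and regulators, stood at 0.05 and 0.02 (limma adjusted p = 0.66 and 0.785), and Eomes and Otx2 also did not pass. Gsc, T, Mixl1, Foxa2, Sox17, Lhx1, Fgf8 and Cer1 were under the minimum for a test. On the stem cell marker scale 6 of the 9 rose at 72 h, against 55% of all genes tested.

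**Figure D5:**
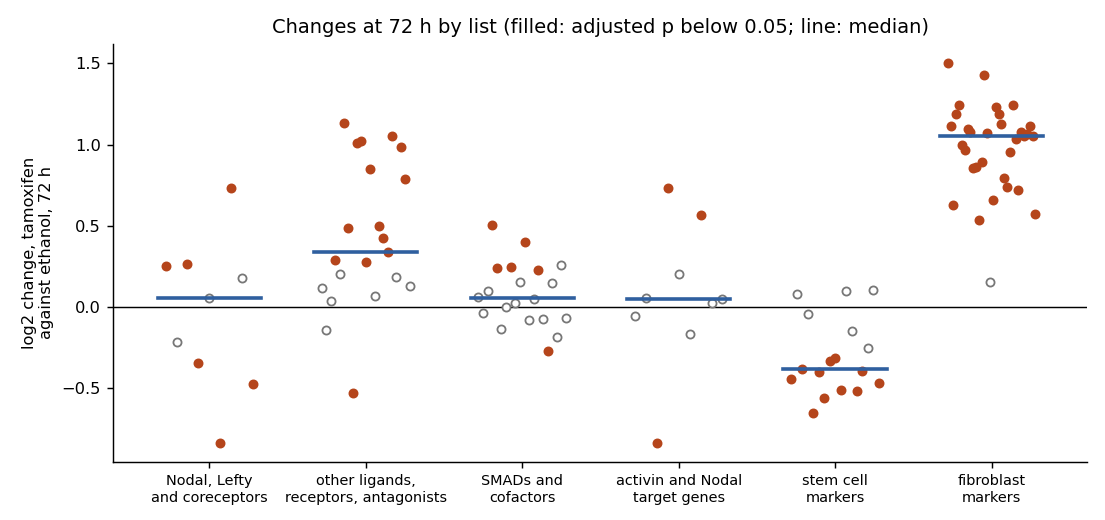
Log2 change of FPKM + 1, tamoxifen against ethanol at 72 h (vertical axis), of the tested genes of 6 lists; each point is a gene, filled points have an adjusted p below 0.05, and lines are list medians. The medians of the Nodal system and of the target genes lie at 0.06 and 0.05, that of the fibroblast markers at 1.05 and that of the stem cell markers at -0.38.

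Profiles over the 8 libraries were compared by the root mean square difference of log2(FPKM + 1), each gene centred on its own mean, among 8181 genes with a mean of at least 5 FPKM. The closest to Lefty2 was Trh, the gene of thyrotropin-releasing hormone (0.07), with means of 176, 146, 307 and 184 FPKM in ethanol 48 h, tamoxifen 48 h, ethanol 72 h and tamoxifen 72 h. Iqcb1 and Snrnp48 followed (0.09 each). The closest to Nodal were Loxl3, Slc19a2 and Cck (0.08 each), to Lefty1 Ppm1j, Focad and Arhgef16 (0.08 to 0.09), and to Tdgf1 Adss, Tfrc and 5730507C01Rik (0.05 each). Among the 9 tested genes of the Nodal system the closest pair was Acvr1b and Furin (0.08), followed by Tdgf1 and Gdf3 (0.17), and the farthest was Lefty1 and Tdgf1 (0.89). The 2 Lefty genes differed by 0.45, so neither was the other's nearest profile. All of these values share the same 8 libraries and their depths and are a description only.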

How the data were processed

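Polyadenylated RNA was sequenced as 100-base paired ends, per the labels' protocols. The FPKM values per gene and library are used as deposited by the authors. The submitters' processing notes name build mm9 and, without their roles, Cufflinks 1.3.0, TopHat 1.4.1, DESeq, HTSeq and BWA 0.6.1. The authors also deposited comparison tables with a signal (mean counts divided by size factors), ratios and log2 fold changes of ethanol over tamoxifen, whose sign was turned here, and p-values and adjusted p-values.

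Of 20789 entries, 209 not marked OK were left out and 1 entry of highest mean was kept per identifier. The test took genes that reached an FPKM of 1 in 2 or more libraries. Starts in the files count from 0 and 1 was added. Fragments implied by the intervals cover counting error only.

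A single limma fit (R 4.3.3, limma 3.58.1) of log2(FPKM + 1) with 4 group means, 4 residual degrees of freedom and a mean trend gave two-sided p-values, adjusted by Benjamini-Hochberg over 11867 genes per comparison. The fit was also run on simulated data with independent noise and few changed genes. That setting differs from these libraries, where 38.5% of genes were called at 72 h. Sequences were read with Biopython 1.88. All 10 genes are named. From each pathway list, the genes called at 72 h with the 3 smallest p are named. Gdf1, Lamb1, Lama1, Gata6, Dab2, Sox11, Smad2, Smad4, Smad7, Skil, Foxh1, Eomes and Otx2 were picked after their values were seen, and some genes are not reported here. Members and lists were chosen with earlier results of these data known. The alternatives were other pseudocounts, filters, scalings and variance models, the replicate number as a block, and each library left out.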

Additional observations from a re-analysis of the deposited data

Results flagged for a closer look

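The tamoxifen change of Lefty2 differed between the 2 times by a test of the difference itself. It was lower at 72 h than at 48 h by 0.69 on the log2 scale (-0.69, limma adjusted p = 0.00473). The change at 48 h alone did not pass (limma adjusted p = 0.107). Both tamoxifen libraries of Lefty2 lay below both ethanol libraries at each time. The same held for 26.1% of all genes tested at 48 h and 34.5% at 72 h. Fst, of the other ligands and antagonists, also differed between the times, with a change larger by 0.72 at 72 h (limma adjusted p = 0.0297). Its adjusted p was 0.0847 without the filter on low values and up to 0.11 when single libraries were left out. For Tgif1, a SMAD corepressor, the difference was -0.36 (limma adjusted p = 0.0298). It did not pass when any 1 of the 8 libraries other than tamoxifen 72 h replicate 2 was left out, nor without the filter (adjusted p = 0.058), without the variance trend (0.0763) or on the stem cell marker scale (-0.08, 0.463).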

How the results depend on the processing

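The number of the 9 genes called ran from 1 to 3 at 48 h, 4 to 6 at 72 h, 1 to 1 for the difference between the times, 7 to 8 between the times in ethanol and 8 to 9 in tamoxifen when single libraries were left out, the lone library of a group being assumed to vary like the other groups. For the difference between the times it was 2 after quantile normalization, where 328 of the 11867 genes tested passed as higher and 226 as lower. It was 3 on the stem cell marker scale, where Nodal (0.29) and Pcsk6 (0.49) passed beside Lefty2. On that scale 28% of all genes passed this test, 27.6% higher and 0.48% lower, and the median of all genes was 0.24. Some values turned sign, and of these the change of Tgif1 at 72 h had been a call. Gdf3 at 48 h stood at 0.01 after quantile normalization and 0.02 on the stem cell marker scale, Acvr2b at 72 h at 0.07 and Tgif1 at 0.03 on the latter, and Pcsk6 between the times in ethanol at -0.04 and -0.17. The difference between the times for Acvr1b stood at 0.02 with a pseudocount of 5, 0.04 after quantile normalization and 0.25 on the stem cell marker scale, where Lefty1, Tdgf1 and Furin stood at 0.22, 0.02 and 0.21. With single libraries left out the range was -0.09 to 0.07 for Gdf3 at 48 h, -0.03 to 0.44 for Acvr2b at 48 h, -0.02 to 0.13 for Lefty1 at 72 h, and, for the difference, -0.03 to 0.06 for Nodal, -0.06 to 0.06 for Acvr1b and -0.13 to 0.01 for Lefty1. The causes were not tested.

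With all libraries kept, Tdgf1 lost its call at 48 h after quantile normalization (-0.11), without the filter, without the trend, on the stem cell marker scale and with the replicate block (adjusted p = 0.0706). Lefty2 at 48 h passed after median-ratio scaling (-0.18, adjusted p = 0.0375). Acvr1b at 48 h passed with a pseudocount of 0.1, an FPKM minimum of 5 and on the stem cell marker scale. That scaling was added after seeing the data. Over all genes, calls at 48 h ran from 440 to 1627 around 1466, and for the difference from 44 to 3327 around 409. With median-ratio scaling there were 778 rises and 849 falls at 48 h (935 and 531 without it), and 3247 rises and 3482 falls between the times in ethanol (4506 and 2278 without it).

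The differences between replicates 1 and 2 had correlations of -0.276 to 0.145 between groups. Whether the numbers pair the samples is not stated, and such correlations cannot decide it. With the replicate number as a block, 2, 6, 1, 7 and 9 of the 9 genes were called in the 5 comparisons, and 9 in tamoxifen between the times with crossed numbers. Of all 11867 genes the block gave 844 rises and 441 falls at 48 h, and 2310 and 2099 at 72 h. It gave 158 and 108 for the difference, 4430 and 2240 between the times in ethanol, and 4359 and 2251 in tamoxifen (4377 and 2276 with crossed numbers). Cer1, with 8 fragments in all and at most 0.142 FPKM, stayed below the FPKM minimum of 1 and was not tested.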
